A study of Mus musculus with 9 samples.

Results

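CD4+ T cells turned into induced regulatory T cells (iTreg) with a platelet lysate were compared with iTreg made with purified TGFβ1. The comparison used the 3 arrays titled pltTGFβ_iTreg (platelet-lysate iTreg) and the 3 titled purTGFβ_iTreg (purified-TGFβ iTreg), chosen by title alone, which are 6 of the 9 arrays of the series. The 3 Tconv arrays were not compared, and entered only the choice of each gene's probe set and some alternative runs. Both groups began as CD4+EGFP- cells sorted from spleens of Foxp3EGFP reporter mice on the C57BL/6 (B6) background. Both were kept for 72 hours on plate-bound anti-CD3 antibody (2.5 µg/ml), with anti-CD28 antibody at 1 µg/ml, IL2 at 100 U/ml, β-mercaptoethanol and 10% serum in the medium. The purified group received 5 ng/ml TGFβ1 and is called a positive control in the labels. The other group received a freeze-thaw lysate of platelets from wild type C57BL/6 mice. The TGFβ1 of that lysate was measured by ELISA, but its amount in the cultures is not given in the sources used here. The source of TGFβ, its amount and everything else in the lysate therefore cannot be told apart. No label says whether cells were sorted for the reporter again before RNA was taken, so the share of reporter-positive cells in each sample is unknown. In such bulk RNA, fewer cells of a type and less RNA per cell cannot be told apart. The design text calls the 3 arrays of a group biological replicates and does not say whether animals were pooled.

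TGFβ binds its type II receptor, which recruits the type I receptor, and the pair activates SMAD transcription factors. In naive CD4 T cells stimulated through the T cell receptor with IL-2 present, this signal induces Foxp3, the factor that defines regulatory T cells, and restrains effector cytokine genes such as Ifng and Il2. Platelets store TGFβ1 in their granules beside chemokines, growth factors, matrix proteins and serotonin.

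The values are log2 expression from Robust Multichip Analysis (RMA), on which a difference of 1 is a 2-fold difference, and 18193 genes had a named probe set. A gene was called when limma's Benjamini-Hochberg adjusted p was under 0.1 and the log2 fold change was above 0.5 in size (1.41-fold). "Rose" and "fell" mean called higher or lower in platelet-lysate iTreg than in purified-TGFβ iTreg. By this rule 749 genes (4.12%) were called, of which 281 rose (1.54%) and 468 fell (2.57%). In all 749 the 3 arrays of one group lay above the 3 of the other, as they did for 28.2% of all genes. Folds were mostly small: 71 genes rose and 97 fell by more than 2-fold, while 11 rose and 11 fell by more than 4-fold. Arrays correlated at 0.9962 to 0.9976 within platelet-lysate iTreg, 0.9965 to 0.9975 within purified-TGFβ iTreg and 0.9927 to 0.9946 between the groups. The median log2 fold change of all genes was 0.01.

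**Figure D1:**
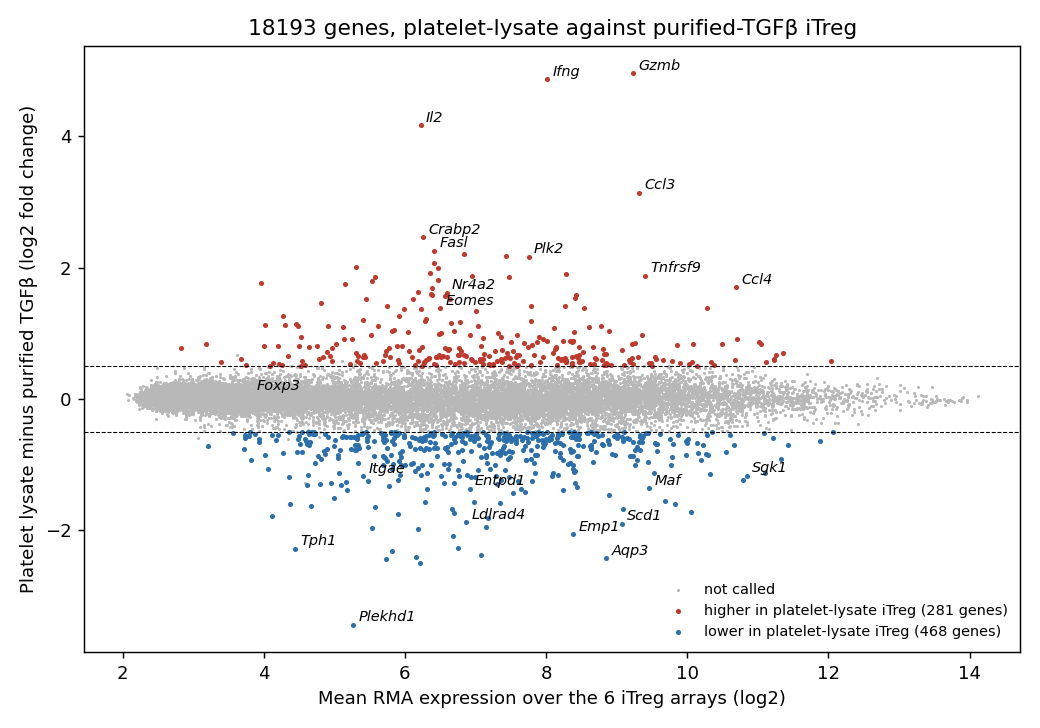
Log2 fold change (platelet lysate minus purified TGFβ, vertical axis) against mean RMA log2 expression over the 6 arrays (horizontal axis) for 18193 genes. Red points are the 281 genes called higher, blue points the 468 called lower, and the dashed lines mark the fold cutoff of 0.5; Gzmb, Ifng, Il2 and Ccl3 stand above the other rises.

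The cells' identity was checked first. All 11 pan-T cell markers measured, such as Cd3e and Cd4, were above the level that 95% of 39 olfactory receptor genes (silent in T cells) stayed under, 4.38, and 0 of 11 were called. Foxp3 read 3.84, 3.84 and 3.90 with platelet lysate and 3.68, 3.84 and 3.81 with purified TGFβ. Both groups thus read under the olfactory receptor level at this probe set, and the arrays overlapped (log2 fold change 0.08 ± 0.07 SE, limma adjusted p = 0.63). Its deposited probe set therefore did not measure Foxp3 above the dim range in either group. Il2ra, the high-affinity IL-2 receptor chain, was bright in both, at 10.42 ± 0.10 (SD, n = 3) with platelet lysate and 10.37 ± 0.05 (SD, n = 3) with purified TGFβ. Of 19 platelet markers 1 was called, Itgb3. The platelet chemokine genes Pf4 (3.30 against 3.05) and Ppbp (2.70 against 2.46) lay under the olfactory receptor level in both groups and were not called. Of 12 B cell, 15 myeloid and 6 erythroid markers 0 were called, although other genes known from B cells were lower, as given with Igha.

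The largest and second largest rises were Th1 and cytotoxic effector genes. Gzmb, which encodes the cytotoxic protease granzyme B, read 11.80, 11.68 and 11.63 with platelet lysate and 6.66, 6.70 and 6.89 with purified TGFβ. It rose 31.0-fold (log2 fold change 4.95 ± 0.09 SE, limma adjusted p = 3.85e-07), the largest difference of all genes called. Ifng, the defining Th1 cytokine, read 10.49, 10.47 and 10.39 against 5.71, 5.29 and 5.75. Its fold was 29.2 (log2 4.87 ± 0.12 SE, limma adjusted p = 1.67e-06), and no platelet-lysate array came near a purified-TGFβ array for either gene. Of 26 Th1 and cytotoxic genes measured, 10 rose and 1 fell, with a median log2 fold change of 0.43. Eomes, a T-box factor of cytotoxic cells, rose by 1.38 (log2), Gzma (granzyme A) by 1.27, the interleukin-12 receptor chains Il12rb2 by 1.14 and Il12rb1 by 0.66, and Stat4, which signals from that receptor, by 0.83. Tbx21 (T-bet), the Th1 master factor, was bright in both groups at 9.09 and 8.73, and its difference of 0.36 was under the fold cutoff. Perforin (Prf1, log2 fold change 0.42) was also under it. Gzmk fell by 0.55, a call that was lost without purified-TGFβ replicate 1 or 3 or without platelet-lysate replicate 1. Of 7 measured markers of CD8 and NK cells, which also carry cytotoxic genes, 0 were called higher and Klrd1 fell by 1.27. Cd8a read 4.31 with platelet lysate and 4.46 with purified TGFβ, and Ncr1 read 3.55 and 3.78. The summed linear level of the 7 markers was 216 to 224 with platelet lysate and 273 to 337 with purified TGFβ. In 5 of the 7 the brighter group mean was above the olfactory receptor level. The part of CD8 and NK cells in these values was not tested.

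The promoters of Gzmb and Tnfsf14, which rose, were picked for display because each holds the letters of AP-1, a factor downstream of the T cell receptor. They are the 250 bases before the start of transcription, from RefSeq on GRCm38.p6, read 5′ to 3′ on the gene's strand. Capitals mark the AP-1 motif TGANTCA. The promoters lie at chr14:56262335-56262584 (Gzmb, minus strand) and chr17:57194182-57194431 (Tnfsf14, minus strand).
Gzmb: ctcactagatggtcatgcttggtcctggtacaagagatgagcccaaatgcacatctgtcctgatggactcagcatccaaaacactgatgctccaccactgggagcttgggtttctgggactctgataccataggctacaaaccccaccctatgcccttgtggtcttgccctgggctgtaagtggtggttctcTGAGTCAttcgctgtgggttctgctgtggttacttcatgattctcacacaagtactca
Tnfsf14: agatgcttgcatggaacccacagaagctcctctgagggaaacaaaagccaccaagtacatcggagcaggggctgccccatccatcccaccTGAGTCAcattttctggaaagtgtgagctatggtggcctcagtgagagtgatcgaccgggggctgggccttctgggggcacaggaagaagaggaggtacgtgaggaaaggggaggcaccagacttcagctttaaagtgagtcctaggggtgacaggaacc

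The AP-1 letters began 58 bases before the start in Gzmb and 160 bases before it in Tnfsf14. Over windows of 300 bases (250 before to 50 after the start) searched on both strands, 6.15% of the 11791 measured genes with 1 RefSeq promoter held the AP-1 letters. They were in 15 of 176 genes that rose (8.52%) and 13 of 300 that fell (4.33%). Promoters on chr18 were not searched and are not in these counts. Among list members with 1 promoter they were in 0 of 7 called and 1 of 8 uncalled early T cell receptor genes, in 0 of 4 called and 3 of 6 uncalled chemokine ligands, and in 2 of 11 called and 3 of 11 uncalled cytokine genes. The letters were thus not more frequent in the called members of these lists. A match is a description of letters, and no test was made of these shares.

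Of 32 cytokine ligand genes 12 rose and 1 fell, with a median log2 fold change of 0.19. Il2, the T cell growth factor whose protein was also added to both cultures, read 8.29, 8.20 and 8.41 with platelet lysate and 4.56, 3.87 and 3.99 with purified TGFβ. Its rise of 17.9-fold (log2 4.17 ± 0.17 SE, limma adjusted p = 1.05e-05) started from a purified-TGFβ mean of 4.14, under the olfactory receptor level. RMA compresses such dim readings, so this fold, like those of other genes with a group in the dim range, is a rough value. Il3 rose by 1.77 and Csf2 (GM-CSF) by 1.47, both growth factors of myeloid cells, and both stayed dim, with platelet-lysate means of 4.84 and 5.54. Lif rose by 0.88, Tnf by 0.72 and Il4 by 0.56. Il10, a suppressive cytokine of regulatory T cells, was in the dim range in both groups (3.02 and 3.00). Il17a (log2 fold change 0.27) and Il9 (0.20) were not called.

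Membrane ligands of the TNF family moved with them. Fasl, the death receptor ligand, read 7.60, 7.62 and 7.42 against 5.23, 5.14 and 5.51 and rose 4.78-fold (limma adjusted p = 2.27e-05). Tnfsf14 (LIGHT), shown above, read 6.57, 6.45 and 6.52 against 4.72, 4.64 and 4.60, a rise of 3.64-fold, and the groups were far apart on every array. Tnfsf4 (OX40 ligand) rose by 1.60, Tnfsf8 (CD30 ligand) by 1.37, Tnfsf9 (4-1BB ligand) by 0.64 and Tnfsf11 (RANKL) by 0.61. Tnfsf10 (TRAIL), another death receptor ligand, went the other way and fell by 0.78. Among the 8 genes of the Tnfsf family 5 rose and 1 fell.

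Chemokine ligands that were called rose, and chemokine receptors that were called fell. Ccl3, which attracts leukocytes, read 10.91, 10.87 and 10.86 against 7.63, 7.81 and 7.79 and rose 8.79-fold (log2 3.14 ± 0.07 SE, limma adjusted p = 1.67e-06). Its neighbour Ccl4 read 11.61, 11.65 and 11.37 against 9.82, 9.85 and 9.87, so it was already bright with purified TGFβ and rose by 1.70. Ccl1, a ligand of CCR8, rose by 1.11, Xcl1 by 0.84 and Ccl20, the ligand of CCR6, by 0.79. In all, 5 of 14 chemokine ligands rose and 0 fell, with a median log2 fold change of 0.33. Of 15 chemokine receptors 0 rose and 4 fell: Cx3cr1 (log2 fold change -1.39), Cxcr4 (-0.92), Ccr8 (-0.79) and Ccr6 (-0.73). Ccr8 and Ccr6 thus fell where the genes of their ligands, Ccl1 and Ccl20, rose, but the call of Ccr8 was lost when variances were not moderated across genes. Gpr15, a gut-homing receptor, fell by 1.13.

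**Figure D2:**
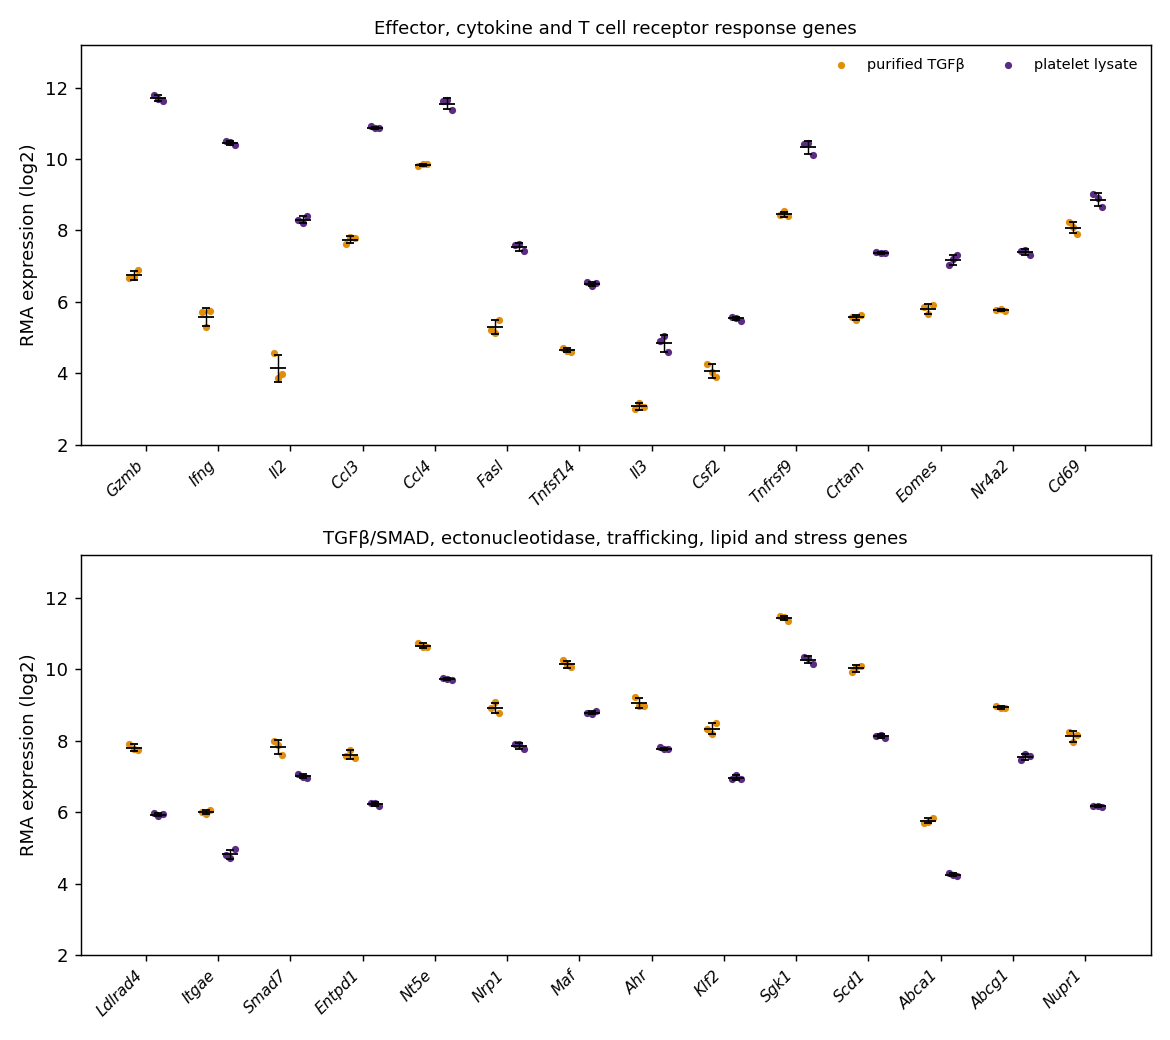
RMA log2 expression (vertical axis) on each of the 3 arrays per group for 14 genes that rose (upper panel) and 14 that fell (lower panel); orange points are purified-TGFβ arrays, purple points platelet-lysate arrays, and bars the mean and SD. For every gene drawn the arrays of the groups lie apart, with gaps that range from Cd69 (8.66 to 9.01 against 7.91 to 8.23) to Gzmb (11.63 to 11.80 against 6.66 to 6.89).

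Receptors that costimulate or inhibit T cells were called in both directions, with more rises than falls on the lists used. Tnfrsf9 (4-1BB), a receptor that stimulated T cells display, read 10.43, 10.44 and 10.12 against 8.42, 8.54 and 8.41, a rise of 3.67-fold (limma adjusted p = 3.34e-05). Crtam, an adhesion receptor of cytotoxic CD4 cells, read 7.41, 7.37 and 7.37 against 5.58, 5.50 and 5.63 and rose 3.51-fold. The arrays of the groups lay far apart for both genes. On a list of 20 costimulators and TNF receptors that did not hold Cd40, 6 rose and 0 fell, the others being Slamf1 (1.02), Icos (0.84), Tnfrsf18 (GITR, 0.71) and Tnfrsf4 (OX40, 0.68), so that OX40 and its ligand Tnfsf4 both rose. Of 12 coinhibitory genes 5 rose: Cd160 by 1.22, Btla by 0.97, Havcr2 (TIM-3) by 0.84, Cd274 (PD-L1) by 0.61 and Ctla4 by 0.51. Cd160 and Btla bind the same partner, a TNF receptor that is also the receptor of Tnfsf14. Havcr2 stayed in the dim range, at 3.60 against 2.77. The call of Ctla4 (10.40 against 9.89) lay at the cutoff and was lost without purified-TGFβ replicate 2 or without platelet-lysate replicate 1 or 3. The other coinhibitory gene called, Entpd1, fell. Cd200, a ligand that restrains myeloid cells, rose by 1.38, and Cd83 rose by 1.69. Cd40, the receptor of CD40 ligand and better known from antigen-presenting cells, read 5.67, 5.68 and 5.57 against 7.71, 7.74 and 7.73 and was 4.25-fold lower, on 3 of 3 probe sets. Tnfrsf13b (TACI) fell by 1.14 and Tnfrsf22 fell by 0.55, so that of all 19 genes with Tnfrsf symbols 3 rose and 2 fell. Without platelet-lysate replicate 3 Tnfrsf22 was under the fold cutoff (log2 fold change -0.47).

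Genes switched on early after T cell receptor ligation were called higher more often than lower. On a list of 26 measured genes that did not hold Jun, 12 rose and 0 fell, with a median log2 fold change of 0.32 and 24 positive values. Nr4a2, an orphan nuclear receptor of this class, read 7.42, 7.46 and 7.32 against 5.78, 5.81 and 5.76 and rose 3.06-fold (limma adjusted p = 1.52e-05). Its relatives Nr4a3 and Nr4a1 rose by 0.83 and 0.54 from much brighter levels, 10.62 and 9.76. Of the Egr factors, Egr3 rose by 0.85 and Egr2 by 0.54, while Egr1 (0.34) was under the fold cutoff. Cd69, the early activation antigen, rose by 0.79. Values without a call included Fos, Junb, Myc, Irf4 and Nfatc1, so the list did not move as a block. Jun, an early gene for an AP-1 subunit that was not on this list, fell. On a list of 22 AP-1, BATF, IRF and related factors 4 rose and 2 fell, Maf and Jun. The call of Nr4a1 was lost without purified-TGFβ replicate 1, that of Egr2 without purified-TGFβ replicate 3 (log2 fold change 0.47), and those of Nr4a3 and Egr3 when their dim second probe sets were averaged in.

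The NF-κB pathway contributed 5 rises of 19 genes and 0 falls. Rel (c-Rel), the subunit with a known role in Il2 and Foxp3 transcription, was at 7.94 ± 0.05 with platelet lysate and 7.08 ± 0.07 with purified TGFβ (SD, n = 3 each) and rose 1.82-fold, with no overlap between the arrays. The other 4 were the inhibitor gene Tnfaip3 (A20), which rose by 0.92, and the IκB-family genes Nfkbia (0.61), Nfkbid (0.59) and Nfkbib (0.51). Nfkbia was called on all 5 of its probe sets. The call of Nfkbib was lost without purified-TGFβ replicate 2 or platelet-lysate replicate 2. Among 31 genes of the T cell receptor complex and its signalling 2 rose and 0 fell, 6.5% called against 4.12% of all genes. The 2 were Cblb, an inhibitory ubiquitin ligase (0.94), and Sla, an inhibitory adaptor (0.83).

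Genes of the regulatory T cell signature split between the directions: of 27 measured, 8 rose and 7 fell, with a median log2 fold change of 0.04. Those that rose were Gzmb, Tnfrsf9, Cd83, Ecm1 (1.00), Icos, Tnfrsf18, Tnfrsf4 and Ctla4, most of which activated conventional T cells are also known to express. Those that fell included Entpd1, Itgae, Nrp1 (neuropilin-1) and Nt5e. Nrp1 read 7.90, 7.90 and 7.76 with platelet lysate and 8.90, 9.07 and 8.78 with purified TGFβ and was 2.08-fold lower (limma adjusted p = 0.000453). The Ikaros-family factors Ikzf2 (Helios, log2 fold change -0.52) and Ikzf4 (Eos, -0.51) and the actin-capping gene Capg (-0.51) completed the list, all at the edge of the fold cutoff. Their calls were lost without several arrays: Ikzf2 without either of purified-TGFβ replicates 1 and 3 or platelet-lysate replicates 1 and 2, Ikzf4 without purified-TGFβ replicate 1 or platelet-lysate replicate 3, and Capg without purified-TGFβ replicate 2 or platelet-lysate replicate 3. Of 9 genes that regulatory T cells are known to hold low, 7 rose: Ifng, Il2, Tnf, Dapl1 (0.68), Satb1 (0.63), Il4 and Pde3b (0.53). Igfbp4, an insulin-like growth factor binding protein on the same list, fell by 0.91. The call of Pde3b was lost without purified-TGFβ replicate 2 or platelet-lysate replicate 3, and that of Satb1 when its probe sets were averaged.

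Known targets and components of TGFβ signalling were lower more often than higher: 7 of 26 fell and 2 rose, with a median log2 fold change of -0.25. Ldlrad4, a membrane protein that dampens SMAD2 and SMAD3 activation, read 5.97, 5.89 and 5.94 with platelet lysate and 7.91, 7.76 and 7.74 with purified TGFβ. It was 3.67-fold lower (log2 fold change -1.87 ± 0.07 SE, limma adjusted p = 1.05e-05). Itgae (CD103), the integrin chain that TGFβ induces on T cells, read 4.80, 4.71 and 4.95 against 6.00, 5.95 and 6.05 and was 2.26-fold lower. Smad7, the feedback inhibitor of the pathway, read 7.06, 6.99 and 6.95 against 7.99, 7.88 and 7.60 and was 1.77-fold lower (limma adjusted p = 0.00293). In each of these 3 genes every platelet-lysate array lay under every purified-TGFβ array. Differences were smaller for other feedback genes that fell: Smurf1, a ubiquitin ligase that works with SMAD7 (log2 fold change -0.74), Klf10 (-0.62) and Pmepa1 (-0.56). The receptor gene Tgfbr2 fell by 0.61 on its brightest probe set, a call lost when its dimmer probe sets were averaged in, and Tgfbr1 (log2 fold change -0.43), Skil (-0.44) and Ski (-0.43) lay just under the fold cutoff. The rises were Bhlhe40 (0.80) and Id2 (0.70). TGFβ is known to repress Id2 in several cell types, so the list mixes genes that TGFβ induces with genes that it represses. Whether TGFβ signalling differed between the groups was not tested. Tgfb1 itself was at 7.94 ± 0.25 (SD, n = 3) and 8.02 ± 0.12 (SD, n = 3) and was not called (limma adjusted p = 0.805).

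**Figure D3:**
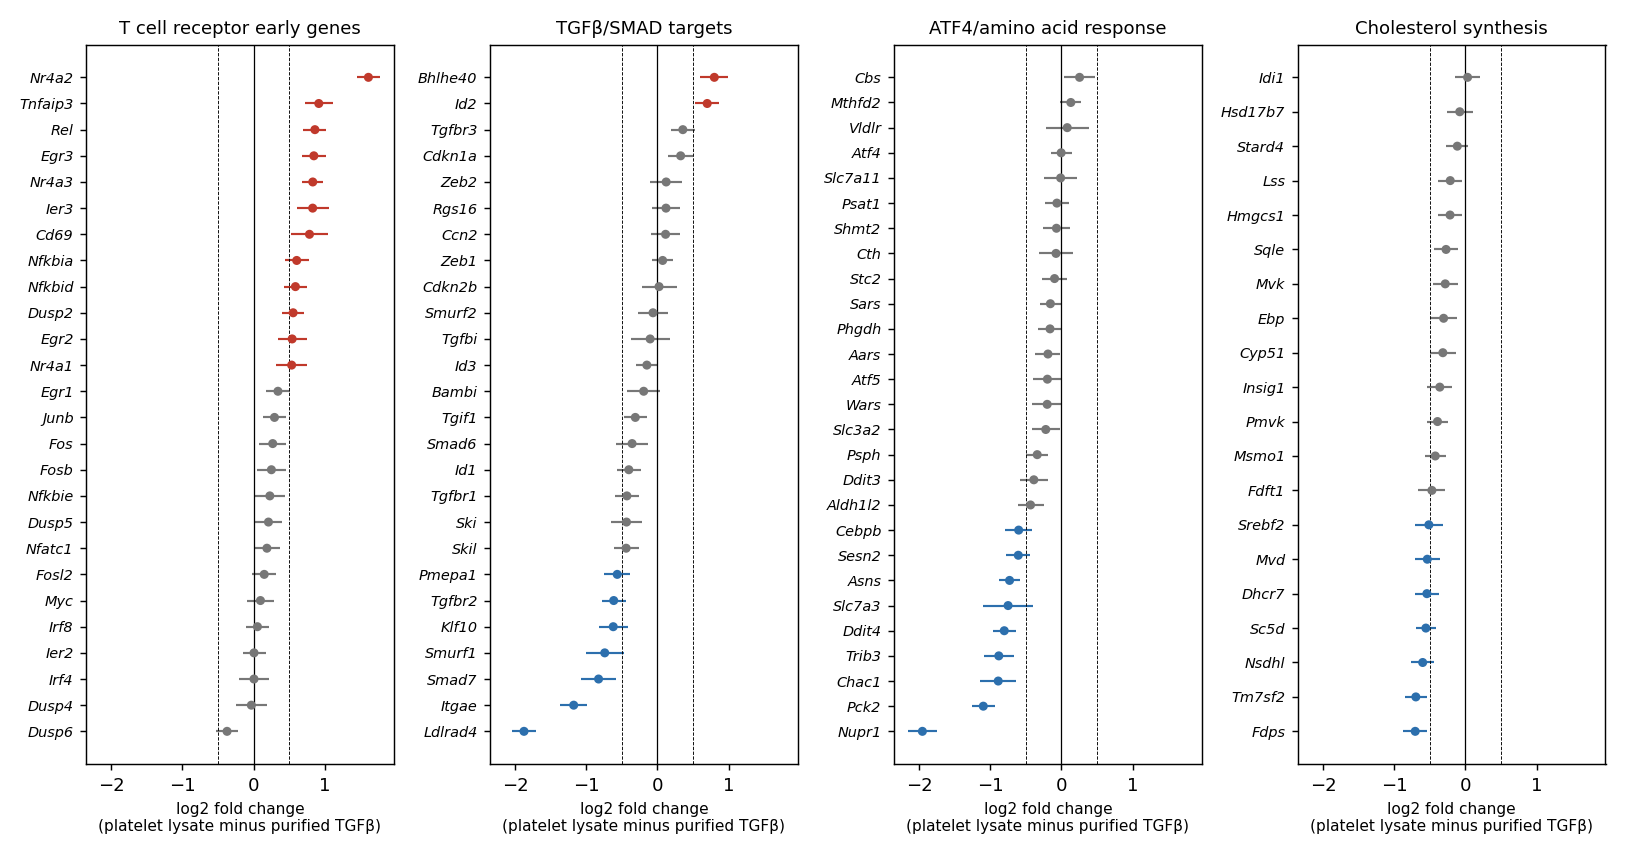
Log2 fold change (platelet lysate minus purified TGFβ, horizontal axis) of each measured member of 4 gene lists, with 95% intervals as bars. Red members rose, blue members fell and grey members were not called; dashed lines mark the fold cutoff of 0.5. The T cell receptor list has calls on the right side and the ATF4 and cholesterol lists on the left side.

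Both ectonucleotidases that turn extracellular ATP into adenosine fell. Entpd1 (CD39), which takes ATP to AMP, read 6.26, 6.26 and 6.17 with platelet lysate and 7.56, 7.74 and 7.50 with purified TGFβ and was 2.58-fold lower on its brightest probe set, with all 3 probe sets called. Nt5e (CD73), which takes AMP to adenosine, read 9.76, 9.73 and 9.69 against 10.73, 10.62 and 10.60 and was 1.90-fold lower (limma adjusted p = 0.000201). The arrays of the groups did not overlap for either enzyme. Tph1, the rate-limiting enzyme of serotonin synthesis outside neurons, read 3.34, 3.33 and 3.24 against 5.42, 5.66 and 5.69 and was 4.87-fold lower. It was thus in the dim range with platelet lysate and above it with purified TGFβ. These were the 3 genes called among 19 for serotonin and purine enzymes and receptors. Of 16 P2 purine receptor genes 0 were called, and 0 of the list rose.

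Transcription factors linked to Th17 and other helper cells fell, and of 10 Th17 genes 3 fell and 1 rose. Maf (c-Maf), which drives Il10 and Th17 genes, read 8.77, 8.75 and 8.82 against 10.25, 10.11 and 10.06 and was 2.57-fold lower, called on 5 of 6 probe sets. Ahr, the aryl hydrocarbon receptor, read 7.81, 7.76 and 7.77 against 9.22, 8.95 and 8.97 and was 2.41-fold lower (limma adjusted p = 0.000123). Both were 1 unit or more apart on every array. Rora fell by 0.70, a call lost without purified-TGFβ replicate 1 or 3 or platelet-lysate replicate 2 or 3. The receptor Ccr6 fell as well, while its ligand gene Ccl20 was the Th17 gene that rose. The other measured targets of Ahr were not called (1 of 7 list members, Ahr itself). Bcl6, the follicular helper factor, fell by 0.64, a call lost when its probe sets were averaged, whereas Sh2d1a (SAP), the adaptor those cells need, rose by 1.58.

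On a list of FOXO targets and genes of the PI3K and mTORC1 circuit, 8 of 25 fell, 0 rose and 17 were not called, with a median log2 fold change of -0.11. Klf2, which keeps T cells recirculating, read 6.93, 7.04 and 6.93 against 8.33, 8.18 and 8.48 and was 2.58-fold lower (limma adjusted p = 0.000107). Sgk1, a salt- and glucocorticoid-induced kinase that phosphorylates FOXO factors, read 10.33, 10.31 and 10.15 against 11.48, 11.44 and 11.36 and was 2.24-fold lower. The others were Sesn1 (log2 fold change -0.84), Txnip, which lowers glucose uptake (-0.78), the PI3K inhibitor Pik3ip1 (-0.75), the PI3K subunit Pik3r1 (-0.75), Rragd (-0.69) and Arrdc3 (-0.63). The call of Rragd was lost when its probe sets were averaged. That of Arrdc3 was lost without any 1 array other than purified-TGFβ replicate 3, with log2 fold changes from -0.67 to -0.46. Several of these, with Tsc22d3 (GILZ, log2 fold change -1.18) and Ddit4 (-0.80), are also known glucocorticoid targets, but on that list of 11 Dusp1 (0.85) and Il7r (0.58) rose. Cdkn1b (p27), a cell cycle inhibitor under FOXO control, read 8.81, 8.74 and 8.91 against 9.78, 9.75 and 9.71 and was 1.90-fold lower. Trp53inp1 fell by 1.24. Among 15 genes of naive and recirculating T cells, a list that shares Klf2 with this one, Klf2 was the 1 fall, and 3 rose: Dapl1, Satb1 and Il7r, the last also a known FOXO1 target.

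On a list of genes of the amino acid starvation response controlled by the factor ATF4, all calls were falls. Of 27 genes measured 9 fell, 0 rose and 18 were not called, with a median log2 fold change of -0.20, and 3 of 27 values were positive. Atf3, a known ATF4 target that was not on this list, rose by 1.57. Nupr1, a stress-induced chromatin protein, read 6.17, 6.18 and 6.14 with platelet lysate and 8.24, 7.95 and 8.16 with purified TGFβ and was 3.87-fold lower (limma adjusted p = 1.6e-05). Pck2, the mitochondrial PEPCK, read 7.87, 7.85 and 7.85 against 8.89, 9.04 and 8.93 and was 2.14-fold lower. The others were Chac1, which degrades glutathione (log2 fold change -0.89), the pseudokinase Trib3 (-0.88), Ddit4 (-0.80), the arginine and lysine carrier Slc7a3 (-0.75), asparagine synthetase Asns (-0.73), Sesn2 (-0.61) and Cebpb (-0.60). Atf4 itself, known to be controlled mainly at translation, read 11.55 in both groups and was not called. Ddit3 (CHOP, log2 fold change -0.39) was under the fold cutoff. Serine and one-carbon genes of the same list, Phgdh, Psat1 and Shmt2, were not called, nor were any of 21 genes of the unfolded protein response, whose median was 0.15. The call of Slc7a3 was lost without purified-TGFβ replicate 2 or 3, and that of Sesn2 when its probe sets were averaged.

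ATF4 with its C/EBP partners binds a composite element (CARE) with the letters TGATGNAA, and the windows around it are shown for 4 of the genes that fell to let the element be compared. They come from RefSeq promoters on GRCm38.p6, before the start of transcription, 5′ to 3′ on the gene's strand, with the element in capitals on either strand. They lie at chr7:126625513-126625640 (Nupr1, minus strand), chr2:119350992-119351116 (Chac1, plus strand), chr6:7693210-7693292 (Asns, minus strand) and chr14:55540103-55540230 (Pck2, plus strand).
Nupr1: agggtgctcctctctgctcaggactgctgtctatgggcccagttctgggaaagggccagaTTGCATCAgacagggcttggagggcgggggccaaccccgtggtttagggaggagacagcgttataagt
Chac1: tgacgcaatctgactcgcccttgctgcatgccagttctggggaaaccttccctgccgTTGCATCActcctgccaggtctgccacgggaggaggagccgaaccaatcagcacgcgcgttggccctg
Asns: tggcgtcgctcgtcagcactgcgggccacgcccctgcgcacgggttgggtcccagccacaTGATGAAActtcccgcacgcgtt
Pck2: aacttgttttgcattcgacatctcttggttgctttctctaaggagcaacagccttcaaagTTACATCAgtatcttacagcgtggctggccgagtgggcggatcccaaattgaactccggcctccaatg

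The element began 110 bases before the start in Nupr1, 193 in Chac1, 23 in Asns and 103 in Pck2, and in Trib3 it lay 15 bases after the start. Nupr1 and Chac1 share the same letters. Of 20 list members with 1 RefSeq promoter, 7 held the element in the 300-base window, against 2.76% of all 11791 such genes. It was in 5 of the 8 members that fell and in 2 of the 12 that were not called, Slc7a11 and Aars. Across all called genes it was in 3.41% of those that rose and 4.33% of those that fell. Among those that rose were Atf3, itself a known ATF4 target though not on the list (log2 fold change 1.57), and Gadd45g (1.86), which hold the same 8 letters as Nupr1 and Chac1. The list was drawn up as known ATF4 targets, so its members were chosen in part for such elements, and no test was made. Other letters were searched in other lists. Sterol response letters were in 0 of 5 called and 1 of 9 uncalled cholesterol synthesis genes. Paired SMAD letters were in 0 of 3 called and 1 of 7 uncalled TGFβ genes, and FOXO letters in 1 of 4 called and 0 of 16 uncalled FOXO list genes.

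Lipid genes fell on both the synthesis and the export side. Of 20 cholesterol synthesis genes 7 fell and 0 rose, 19 of 20 values were negative and the median log2 fold change was -0.37. Fdps, which makes farnesyl diphosphate, read 11.12, 11.11 and 10.98 against 11.74, 11.85 and 11.74 and was 1.63-fold lower (limma adjusted p = 0.00117). The others were Tm7sf2 (log2 fold change -0.69), Nsdhl (-0.60), Sc5d (-0.55), Dhcr7 (-0.54), Mvd (-0.53) and the controlling factor Srebf2 (-0.51). Idi1 and Hmgcs1, of the same pathway, were not called. Calls of Dhcr7 and Mvd were lost without platelet-lysate replicate 3, that of Srebf2 without replicate 2 of either group (log2 fold change -0.47 and -0.45), and those of Fdps, Sc5d and Mvd when a gene's probe sets were averaged.

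Among 10 targets of the liver X receptors (LXR), which respond to oxysterols, 5 fell and 0 rose, with a median log2 fold change of -0.52. Scd1, the stearoyl-CoA desaturase, read 8.13, 8.17 and 8.07 against 9.91, 10.06 and 10.09 and was 3.73-fold lower (limma adjusted p = 1.05e-05). The cholesterol exporter Abca1 read 4.29, 4.24 and 4.22 against 5.70, 5.73 and 5.83 and was 2.84-fold lower, which put it in the dim range with platelet lysate. Its partner Abcg1 read 7.45, 7.62 and 7.57 against 8.97, 8.90 and 8.92 and was 2.61-fold lower. For these 3 genes the groups were at least 1 unit apart. Scd2 fell by 0.63 and Srebf1, the factor of fatty acid synthesis, by 0.62. In fatty acid metabolism 6 of 29 fell and 1 rose: beside Scd1 and Scd2 these were the desaturase Fads2 (log2 fold change -1.12), the acyl-CoA synthetase Acsl3 (-0.93) and the carnitine transferases Cpt1a (-0.67) and Cpt2 (-0.51, and -0.43 without platelet-lysate replicate 3, under the fold cutoff). The acyl-CoA synthetase genes Acsbg1 (-1.73) and Acsl6 (-1.68), outside the list, also fell.

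The rise in that list was Cd36, a scavenger receptor that binds oxidised lipids and thrombospondin. It read 6.31, 6.53 and 6.47 with platelet lysate and 5.11, 4.23 and 4.58 with purified TGFβ, 3.47-fold higher (limma adjusted p = 0.00144). Itgb3, integrin β3, a partner of fibrinogen and vitronectin receptors, read 5.93, 5.90 and 6.24 against 4.19, 4.48 and 4.17, 3.35-fold higher. Both genes are also expressed by platelets, and Itgb3 was the 1 platelet marker called. The platelet partner of Itgb3, Itga2b, read 6.14 and 6.11 and was not called. The summed linear level of the 19 platelet markers, Itgb3 included, was 369 to 399 with platelet lysate and 332 to 361 with purified TGFβ, with 6 of 19 above the olfactory receptor level. The markers did not rise as a group: their median log2 fold change was -0.01, with 9 positive and 10 negative values. The part of lysate RNA in these values was not tested.

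Receptors for other growth factors of platelets and serum were called in 5 of 26 cases, 4 lower and 1 higher. Bmpr2 (log2 fold change -0.97), Igf2r, which clears an insulin-like growth factor and binds latent TGFβ (-0.86), the activin receptor Acvr1b (-0.62) and Nrp1 (-1.06) fell, and Plxnd1 rose by 0.53. The call of Acvr1b was lost when its probe sets were averaged. Receptors for lipid mediators included 3 rises among 26: Gpr183, which senses oxysterols, read 7.49, 7.42 and 7.42 against 5.29, 5.31 and 5.52 and rose 4.19-fold, Gpr174, a lysophosphatidylserine receptor, rose by 1.18 and the proton sensor Gpr65 by 0.99. Lpar6, a lysophosphatidic acid receptor, fell by 0.85. The sphingosine phosphate receptor S1pr1 (log2 fold change -0.48) was just under the fold cutoff.

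Interferon-stimulated genes moved less than Ifng itself. Of 30 genes 5 rose and 0 fell, with a median log2 fold change of 0.15: Ifih1 (MDA5) by 1.26, Usp18 by 1.03, Ifitm3 by 0.89, Rtp4 by 0.81 and Zbp1 by 0.57. Ifih1 read 6.53, 6.49 and 6.61 against 5.45, 5.19 and 5.21. Among 15 guanylate-binding and immunity-related GTPase genes that interferon γ induces, Gbp8 rose by 1.42 and Gbp7 by 1.08, 0 fell, and the median was 0.04. Gbp2b, a guanylate-binding gene not on that list, fell by 1.30, so the 6 genes with Gbp symbols split into 2 rises and 1 fall. Of 14 genes for antigen processing and MHC class I, 0 were called and 3 values were positive. The call of Zbp1 was lost when its probe sets were averaged.

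Most lists of growth and division genes had a share called near or under the 4.12% of all genes. Of 29 DNA replication genes 0 were called, with a median of 0.00, and Mki67 read 11.57 and 11.68. Of 29 mitosis genes 1 fell, Cdc25b by 0.56, and 24 of 29 values were not positive, with a median of -0.17. The G1 and S phase list had a larger share called, 13.6% of 22 genes. In it Ccnd2 (cyclin D2) rose by 0.57, while the inhibitors Cdkn1b (log2 fold change -0.92) and Cdkn2d (-0.55) fell. All 25 ribosome biogenesis genes had positive values, with a median of 0.30, but only Noc3l (0.61) was called. Of 19 glycolysis genes 1 rose, the hexokinase Hk2, which read 9.20, 9.15 and 9.14 against 8.44, 8.47 and 8.53 and was 1.61-fold higher. The proteasome (25 genes), NRF2 (24), iron and haem (20) and Wnt (17) lists had 0 calls. The call of Cdkn2d was lost without platelet-lysate replicate 3, and that of Noc3l when its probe sets were averaged.

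**Figure D4:**
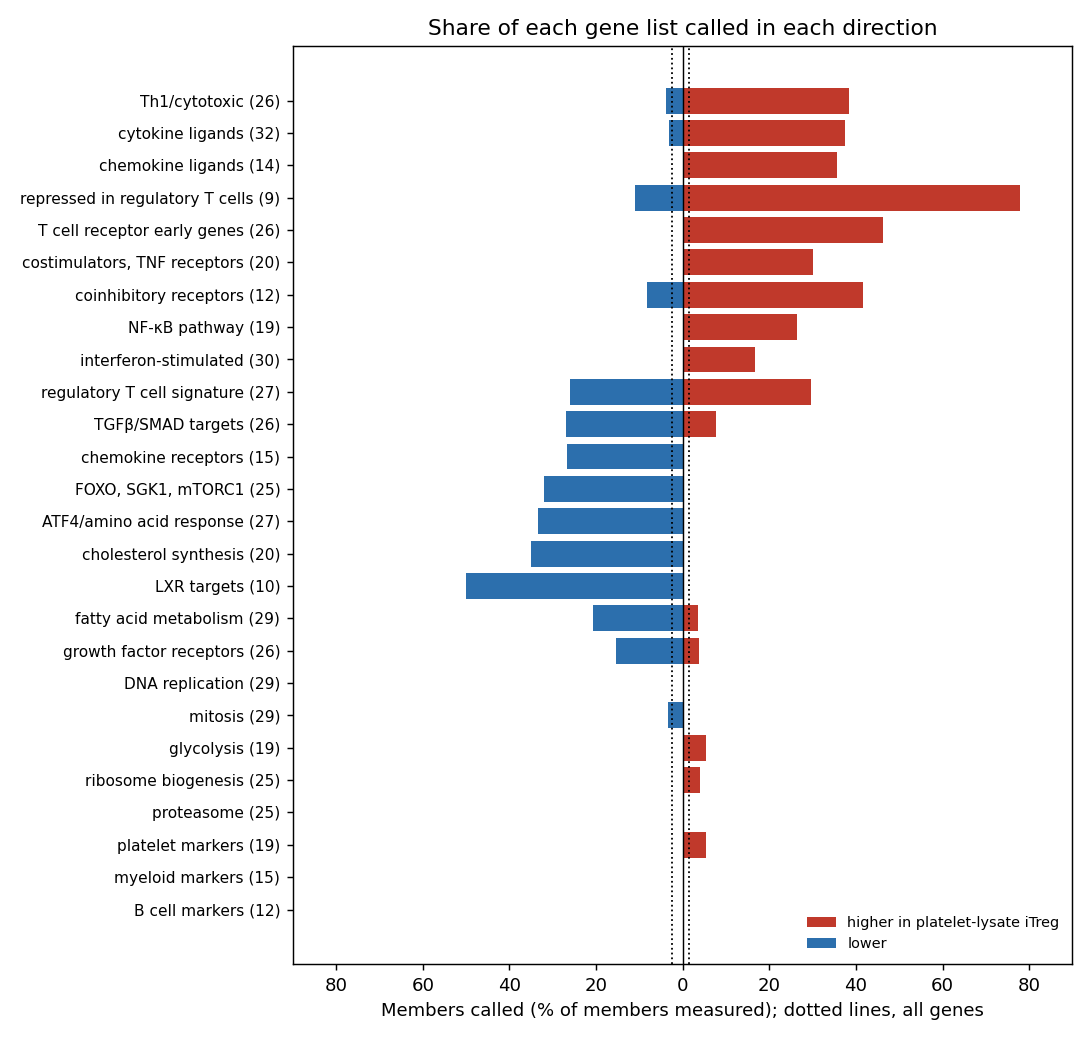
Percentage of the measured members of 26 gene lists called higher (red, to the right) or lower (blue, to the left) in platelet-lysate iTreg, with the number of members in brackets; dotted lines mark the shares over all genes, 1.54% higher and 2.57% lower. Lists of effector, cytokine and T cell receptor genes extend to the right, and TGFβ, FOXO, ATF4, cholesterol and LXR lists to the left.

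Large differences were also found outside the groups described so far. Among rises, Crabp2, a retinoic acid carrier, read 7.54, 7.52 and 7.39 against 5.03, 4.94 and 5.10 and rose 5.51-fold (limma adjusted p = 5.12e-06), and the transglutaminase gene Tgm2, which retinoic acid induces, rose by 1.62. They were the 2 rises among 19 retinoic acid genes. Plk2, a polo-like kinase, read 8.83 on all 3 platelet-lysate arrays and 6.69, 6.63 and 6.69 on the others, a rise of 4.47-fold. Lad1 rose by 2.20, Nrn1 (neuritin) by 2.17, the phospholipid flippase gene Atp8b4 by 2.00, Cst7 (cystatin F), an inhibitor of the cathepsins that process granzymes, by 1.90, Gadd45g by 1.86 and Atf3 by 1.57. Afp (α-fetoprotein), a gene known from fetal liver, rose by 1.59.

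Among falls, Plekhd1 read 3.54, 3.79 and 3.31 against 6.87, 6.89 and 7.19 and was 10.8-fold lower (limma adjusted p = 1.05e-05), in the dim range with platelet lysate. Aqp3, a water and glycerol channel, read 7.61, 7.66 and 7.64 against 9.95, 10.05 and 10.19 and was 5.38-fold lower, called on 3 of 4 probe sets. Neither gene came near overlap between the groups. The paired genes Ctla2b and Ctla2a, inhibitors of cathepsin L, fell (log2 fold change -2.38 and -1.55), though as near-identical copies their probe sets could share signal. Other large falls were Fnbp1l (log2 fold change -2.43), Emp1 (-2.06), Cttn (cortactin, -1.81) and Pdlim5 (-1.72). Cytoskeleton genes as a list split: of 32, 4 fell, among them Rhob (-1.16) and Pfn2 (-0.96), and 2 rose, Evl by 1.35 and Gsn by 0.78, the latter a call lost when its probe sets were averaged. The list of S100, annexin and galectin genes that holds Emp1 had 3 rises and 3 falls among 23. Igha, the IgA heavy chain, read 4.99, 5.19 and 4.70 against 7.27, 7.42 and 7.38 and was 5.27-fold lower, and Pigr, the receptor that carries IgA across epithelia, fell by 1.75. Of the 12 B cell markers 0 were called, and their summed linear level, most of it from Ighm, was 2156 to 2243 with platelet lysate and 2359 to 2625 with purified TGFβ. Other genes known from B cells and antigen-presenting cells also fell, chosen here after their values were seen: Cd40 (log2 fold change -2.09), Tnfrsf13b (-1.14), the class II genes H2-Oa (-0.97) and H2-DMb2 (-0.88) and the adaptor Bank1 (-0.78). The call of Bank1 was lost without purified-TGFβ replicate 1 or platelet-lysate replicate 1 or 2, with log2 fold changes of -0.80, -0.72 and -0.73. The part of B cells in these values was not tested. The zinc importer Slc39a8 fell by 1.67, and the sodium pump subunit Atp1b1 fell by 1.59.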

How the data were processed

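Total RNA was hybridised to Affymetrix Mouse Genome 430 2.0 arrays. The authors deposited log2 expression values made with Expression Console and RMA, per the series' design text, which also names Partek Genomics Suite 6.6, ANOVA, a 1.4-fold cutoff and a false discovery rate of 10%. RMA compresses dim values and can return equal values for several arrays, which understates the spread: the 3 platelet-lysate values were equal for 122 genes (14 called, among them Plk2, Atf3, Emp1 and Acsl6) and the 3 purified-TGFβ values for 129 (3 called). The table holds no detection calls.

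Of 45101 probe sets, 64 controls were left out and 45037 tested with limma 3.58.1 (R 4.3.3), a mean per group over 6 arrays, two-sided. A symbol was listed alone for 34945, with others for 932 and not at all for 9160. The brightest probe set over 9 arrays stood for a gene. With 3 arrays a side the smallest p of an exact permutation test is 0.1, and the number of arrays limits the precision (median SE 0.09 on the log2 scale).

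Lists and families were written with earlier results of these data known, share members and are described by counts. Genes named were the 30 largest rises and falls leaving out predicted, clone and RIKEN names (so AA467197, log2 fold change -2.50, is not among the falls), up to 6 of each list and 4 of each family by adjusted p, 10 preset genes, and others chosen after their values were seen. RefSeq promoters matched 14452 genes, with those on chr18 left out. Scripts were tested on simulated data and used Python 3.11.15.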

Additional observations from a re-analysis of the deposited data

How the results depend on the processing

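No called gene turned the opposite way under any alternative run. Against 281 genes higher and 468 lower, the counts were 281 and 467 with all 9 arrays in the fit, 305 and 442 after quantile normalization, 279 and 476 with array medians centred, 276 and 459 without the dimmest 40% of probe sets, 282 and 475 with an intensity trend and robust variances, 253 and 396 by unmoderated ANOVA, 232 and 382 when all probe sets of a gene were averaged, and 283 and 468 with probe sets chosen on the 6 arrays. An adjusted p under 0.05 gave 278 and 455. Leaving out each array in turn gave 270 to 311 higher and 426 to 476 lower. The cutoff on fold moved the counts most: without it 944 genes were higher and 1227 lower, with 4077 probe sets called against 1474 and 506 list and family members against 238, and at an adjusted p under 0.05 with a 2-fold cutoff 71 were higher and 97 lower, with 293 probe sets and 73 list and family members. Of genes with an adjusted p under 0.1, 407 lay between 0.4 and 0.5 in log2 size, just outside the cutoff, and 236 between 0.5 and 0.6, just inside it.

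The replicate block, with the number in the title as a term, gave 283 higher and 474 lower and kept all 281 and 468. Deviations of same-numbered arrays correlated at 0.19, 0.26 and 0.09, so the numbers were not taken to pair the arrays, although every array correlated best with its own number. Of 237 named genes called, 190 stayed called under every alternative other than the 2-fold cutoff and 47 were lost under at least 1. Of the 749 genes called, 434 had other probe sets (823), of which 375 were called the same way, 0 the opposite way and 448 not at all. The brighter group was above the olfactory receptor level in 275 of the 281 genes higher and 457 of the 468 lower, against 11221 of all 18193 genes. Among those 275 and 457 genes, the dimmer group was not above that level in 24 and 34.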

Other observations

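Some genes called the same way lay side by side. Among 16473 measured protein-coding genes in RefSeq order, 49 runs of adjacent genes called in the same direction were found, 17 higher and 32 lower, holding 104 of 736 called genes; no expected number was computed. Runs that rose paired Ccl3 with Ccl4, Csf2 with Il3, Tnfsf4 with Fasl, Ctla4 with Icos, Tnfrsf4 with Tnfrsf18, Btla with Cd200 and Casp1 with Casp4, and runs that fell paired Cx3cr1 with Ccr8 and Scd2 with Scd1.

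Symbol families added further members. Gadd45b rose beside Gadd45g among 4 genes with Gadd45 symbols, 1 of them Gadd45gip1, which does not encode a Gadd45 protein. Gimap7 and Gimap5 rose among 8 GTPases of the Gimap family, which lymphocytes are known to express. Slamf7, a receptor of cytotoxic cells, rose by 1.52. All 76 mitochondrial ribosomal genes of the Mrp family were without a call, with 57 positive values. The 54 genes with Rpl or Rps symbols and the 48 with Psm symbols were also without a call. Some of those with Rps symbols, such as Rps6ka5 and Rps19bp1, do not encode ribosomal proteins. Of 336 zinc finger genes with Zfp symbols 1 rose and 7 fell.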
